A study of Mus musculus with 2 samples.

Results

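The genes described here are the constant genes of the mouse antibody chains and the joining chain gene Jchain. They were taken by symbol from the deposited gene list, which gave 10 of 33696 genes: the heavy chain genes Ighm, Ighd, Igha, Ighg1, Ighg2b, Ighg2c and Ighg3, the light chain genes Igkc and Iglc1, and Jchain. They were followed in single cells from the dura mater of female mice, in a study of the drainage of venous blood from the head. The JVL-14 group was taken 14 days after ligature of the jugular veins, and the sham group had sham surgery, with the time after it not stated. Strain and number of mice are not given in the sources used here. After perfusion, the peeled dura was broken up with collagenase and DNase, per the labels' protocols, and cells from a pair of meninges were combined per well. Fc receptors were blocked, and viable singlets were sorted and loaded (20000 per library) on a 10x 3′ kit. Bone marrow lies in the adjoining skull, and cells of the dura and of adhering marrow cannot be told apart here.

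Each group has 1 library, so no comparison below has a replicate check and no test was made. The JVL-14 library held 18796260 unique molecular identifiers (UMIs, 1 per captured RNA molecule) in 3004 barcodes, and the sham library 33996641 UMIs in 5495 barcodes. After filters on genes, mitochondrial UMIs and doublets, 2471 JVL-14 and 4672 sham cells were retained, with medians of 4530.0 and 4502.5 UMIs, and the libraries shared 2 barcode sequences. Levels are given as counts per 1000000 UMIs (CPM), from counts summed over the cells of a class, and every interval in brackets is a 95% interval for counting error only, which takes UMIs as independent and does not hold the variation between mice. UMIs come from the 3′ ends of transcripts, so a level does not scale with gene length.

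An antibody is built of paired heavy and light chains, each with a variable and a constant part. A developing B cell first makes the µ heavy chain from Ighm, then a κ (Igkc) or λ (Iglc1, Iglc2 and Iglc3) light chain, and a mature B cell that has not met antigen makes IgM and IgD from 1 long transcript of Ighm and Ighd by alternative splicing. Class switching puts an Igha or Ighg gene in the place of Ighm, and a cell that turns to secretion fills its RNA pool with heavy, light and, for IgM and IgA polymers, Jchain transcripts. IgA plasma cells along the venous sinuses of the dura and B cell precursors from skull marrow are known residents of this tissue.

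The ends of the secreted heavy chains show which members can pair with the product of Jchain, and they are printed as the last 60 coding bases, stop codon included, from GENCODE vM21 transcripts (GRCm38, chromosome 12, minus strand), with capitals on the cysteine codon next to the last amino acid, through which secreted IgM and IgA are known to bind the J chain.
Ighm: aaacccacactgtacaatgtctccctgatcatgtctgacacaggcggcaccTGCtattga
Igha: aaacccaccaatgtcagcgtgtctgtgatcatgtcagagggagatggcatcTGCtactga
Ighg2b: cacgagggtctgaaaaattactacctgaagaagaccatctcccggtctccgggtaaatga
Ighm and Igha carry this codon and Ighg2b does not. The λ constant genes bear on how light chain UMIs can be assigned, and their last 90 coding bases (same transcripts, chromosome 16, minus strand) are printed with capitals at the 27 positions where the 3 genes are not all alike.
Iglc1: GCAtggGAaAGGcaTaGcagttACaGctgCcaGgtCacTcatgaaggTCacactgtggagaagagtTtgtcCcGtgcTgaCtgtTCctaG
Iglc2: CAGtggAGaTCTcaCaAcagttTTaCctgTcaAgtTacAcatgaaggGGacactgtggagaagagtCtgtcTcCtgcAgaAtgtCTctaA
Iglc3: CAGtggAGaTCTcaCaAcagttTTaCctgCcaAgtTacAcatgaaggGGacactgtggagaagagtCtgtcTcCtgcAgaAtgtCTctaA
Iglc2 and Iglc3 matched at 89 of these 90 bases (98.9%), and Iglc1 matched Iglc2 at 63 (70%) and Iglc3 at 64 (71.1%). Over the whole transcripts Iglc2 and Iglc3 shared an exact run of 79 bases, against at most 19 bases between Iglc1 and either of them, so counts split between Iglc2 and Iglc3 are uncertain while those of Iglc1 are less so. Among the heavy chain genes, Ighg2b and Ighg2c shared a run of 78 bases, which makes a split between these 2 uncertain as well.

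Antibody constant RNA was a small part of each library and was carried by few barcodes. The 10 genes took 50724 UMIs in the JVL-14 library (0.270% of all UMIs) and 130723 UMIs in the sham library (0.385%). Of these, 51.3% in the JVL-14 library and 82.6% in the sham library lay in barcodes in which immunoglobulin genes made up at least 20% of the UMIs. That limit was chosen after the values were seen, so the barcodes it picks are described and not tested. The lowest barcode inside it held 20.2% and the highest barcode outside it 7.83%.

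Each of these barcodes was led by IgM or by IgA, and every one of them also held Jchain UMIs. There were 2 such barcodes among 3004 in the JVL-14 library (0.0666%, 0.00806 to 0.240) and 12 among 5495 in the sham library (0.218%, 0.113 to 0.381), a ratio of 0.305 whose interval (0.0331 to 1.37) includes 1. In the JVL-14 library 1 was led by Igha and 1 by Ighm, and in the sham library 2 were led by Igha and 10 by Ighm. They are named below by library and isotype and numbered by total UMIs. Ighd, Ighg1, Ighg2c and Ighg3 had 0 UMIs in all 14.

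**Figure D1:**
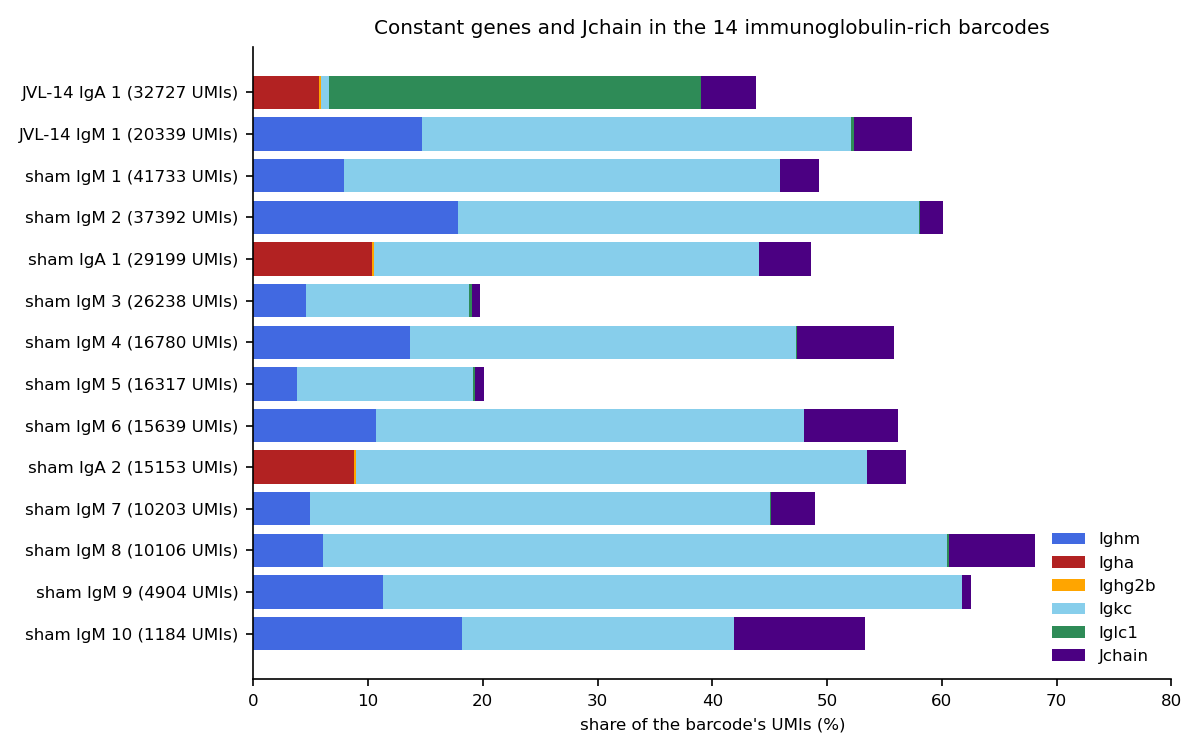
Share of each barcode's UMIs (horizontal axis, percent) taken by 6 of the genes in the 14 barcodes with at least 20% immunoglobulin UMIs, with JVL-14 barcodes on top, sham barcodes under them and the UMI total in each label. The JVL-14 IgA barcode is the 1 bar led by Iglc1, while Igkc fills the largest segment in the other 13.

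The JVL-14 IgA barcode paired IgA with a λ chain. It held 1871 Igha, 10592 Iglc1, 239 Igkc and 1588 Jchain UMIs among 32727, and κ made up 2.21% of its light chain UMIs. Its leading variable genes were Ighv1-26 with 22 UMIs and Iglv1 with 144 UMIs. The other JVL-14 barcode, led by Ighm, held 2996 Ighm, 7603 Igkc and 1025 Jchain UMIs among 20339, with Ighv5-9-1 and Igkv14-111 as its leading variable genes. In the other 13 barcodes κ made up 96.3% to 99.8% of light chain UMIs. Light chain UMIs outnumbered heavy chain UMIs in all 14, by 1.33 to 8.96 times.

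Both sham IgA barcodes used κ. Sham IgA 1 held 3025 Igha, 9806 Igkc and 1308 Jchain UMIs among 29199, and sham IgA 2 held 1331 Igha, 6738 Igkc and 506 Jchain UMIs among 15153. A minor share of Ighg2b, the constant gene of the IgG2b subclass, stood beside Igha in all 3 IgA barcodes, with 61 UMIs in JVL-14 IgA 1, 37 in sham IgA 1 and 31 in sham IgA 2. In the 11 IgM barcodes Ighg2b had 0 UMIs. The longest exact run shared by the Igha and Ighg2b transcripts was 11 bases.

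The 10 sham IgM barcodes spread widely in size. The largest, sham IgM 1, held 3316 Ighm, 15824 Igkc and 1398 Jchain UMIs among 41733, and the smallest, sham IgM 10, held 215 Ighm, 281 Igkc and 135 Jchain UMIs among 1184. Jchain varied more than the chains it joins, with 0.0757 to 1.24 UMIs per heavy chain UMI over the 14 barcodes. The lowest of these was sham IgM 9, which held 42 Jchain UMIs beside 555 Ighm and 2472 Igkc UMIs. Genes of the secretory program stood beside the antibody genes: 4 to 7 of 7 (Xbp1, a transcription factor of secretory cells, Mzb1, a chaperone of antibody assembly, Derl3, Tnfrsf17, Sdc1, Prdm1 and Irf4) had a UMI in each barcode.

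Some sham barcodes shared their leading variable genes, in part on few UMIs. Sham IgM 2, 4 and 10 were all led by Ighv1-82 and Igkv4-70, and sham IgM 3 and 5 both by Ighv8-8 and Igkv5-48, while sham IgM 1 joined Ighv8-8 with Igkv9-120. Ighv8-8 had 1 UMI in sham IgM 3 and 2 UMIs in sham IgM 5, against 20 in sham IgM 1. In sham IgM 10 Ighv1-82 had 2 UMIs and Igkv4-70 had 4. The barcode sequences of sham IgM 4 and sham IgM 10 differ at 2 of 16 positions, those of sham IgM 2 and either of them at 15, and those of sham IgM 3 and sham IgM 5 at 11. Outside the 14 barcodes Ighv1-82 had a UMI in 2 JVL-14 and 4 sham barcodes, and Igkv4-70 in 0 JVL-14 and 2 sham barcodes. Whether these barcodes are related cells, or 1 cell read under 2 barcodes, was not tested.

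The doublet filter decided whether these barcodes entered the retained cells. It removed both JVL-14 barcodes and sham IgA 1, IgM 3 and IgM 5, which left 0 of 2471 JVL-14 cells (up to 0.121% is allowed by 0 counts) and 9 of 4672 in the sham library (0.193%, 0.0881 to 0.365). Of the 9, 6 lay in a cluster led by the granule genes Prtn3 and Mpo and 3 lay 1 each in clusters named olfactory-type neuron, blood endothelial cell and erythroid. Values over retained cells therefore set a JVL-14 library without any against a sham library in which they hold 79.9% of the members' UMIs.

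The members' totals over the deposited barcodes moved with these few barcodes. Igha had 1883 UMIs in the JVL-14 library (100 CPM, 95.7 to 105) and 4378 in the sham library (129 CPM, 125 to 133), with 99.5% of them in such barcodes in each. Jchain had 2622 UMIs in the JVL-14 library (139 CPM, 134 to 145) and 8349 in the sham library (246 CPM, 240 to 251), with 99.7% and 99.6% there. Outside them Igha and Jchain were at 0.480 CPM each in the JVL-14 library, against 0.622 and 1.10 CPM in the sham library.

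The light chain genes ran in opposite directions between the libraries. Igkc had 21896 UMIs in the JVL-14 library (1165 CPM, 1150 to 1180) and 88719 in the sham library (2610 CPM, 2592 to 2627), but without the 14 barcodes it was at 750 CPM in the JVL-14 and 335 CPM in the sham library. Iglc1 had 12864 UMIs in the JVL-14 library (684 CPM, 673 to 696) and 2818 in the sham library (82.9 CPM, 79.9 to 86.0), and without the 14 barcodes it was at 118 CPM in the JVL-14 and 77.5 CPM in the sham library. The order of the 2 libraries thus turned for Igkc and held for Iglc1 once these barcodes were left out, and 82.8% of the Iglc1 UMIs of the JVL-14 library lay in them.

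Ighm turned in the same way as Igkc. It had 11257 UMIs in 822 JVL-14 barcodes (27.4%; 599 CPM, 588 to 610) and 26208 UMIs in 1192 sham barcodes (21.7%; 771 CPM, 762 to 780). Without the 14 barcodes it was at 441 CPM in the JVL-14 and 252 CPM in the sham library. Ighd, which had no UMI in them, was at 7.18 CPM in the JVL-14 library (135 UMIs, 6.02 to 8.50) and 4.41 CPM in the sham library (150 UMIs, 3.73 to 5.18).

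**Figure D2:**
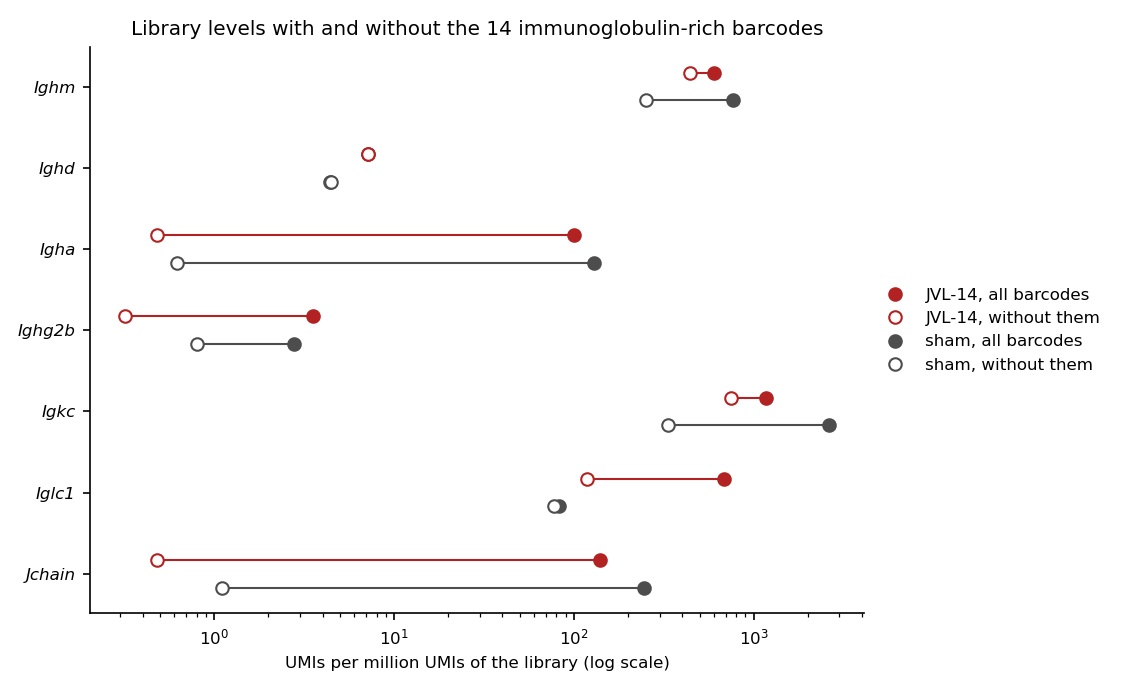
Level of each detected gene (CPM, log axis) in the JVL-14 (upper) and sham (lower) library over all deposited barcodes (filled points) and without the 14 barcodes rich in immunoglobulin UMIs (open points). Igha and Jchain fall to about 1 CPM or under in both libraries when these barcodes are left out, and for Ighm and Igkc the library with the higher level changes.

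The IgG genes were nearly silent. Ighg1 and Ighg2c had 0 UMIs in both libraries, which allows up to 0.160 CPM in the JVL-14 and 0.0882 CPM in the sham library. Ighg3 had 0 UMIs in the JVL-14 library and 6 UMIs in 2 barcodes of the sham library. Ighg2b had 67 UMIs in 3 JVL-14 barcodes (3.56 CPM) and 95 UMIs in 10 sham barcodes (2.79 CPM), of which 91.0% and 71.6% lay in the IgA barcodes above.

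Over all retained cells, 5 of the 10 genes reached at least 20 UMIs and a mean of 20 CPM, and 1 (Iglc1) was at least 1.5-fold higher and 4 (Ighm, Igha, Igkc and Jchain) at least 1.5-fold lower in the JVL-14 library. Of 6545 genes measured in this way, 5.04% were at least 1.5-fold higher and 5.01% at least 1.5-fold lower. The median log2 ratio was -1.52 over the 5 genes and -0.03 over all genes. Igkc stood at 886 CPM in JVL-14 and 2536 CPM in sham cells (ratio 0.349, 0.343 to 0.356) and Ighm at 526 and 842 CPM (ratio 0.624, 0.609 to 0.640). In such sums fewer cells of a type and less RNA per cell cannot be told apart. Without the barcodes of at least 20% immunoglobulin UMIs the ratio was 2.36 for Igkc and 1.84 for Ighm, so both directions rest on 9 sham cells.

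The rest of the members' UMIs lay mainly in B lineage cells, which took a larger share of the JVL-14 library. Cells were clustered without the immunoglobulin genes and named by marker genes, so the members do not define the classes. Cells that met a rule on secretion genes, given below and called rule cells, were set apart and are in no other class. B lineage cells made up 371 of 2471 JVL-14 cells (15%, 13.6 to 16.5) and 341 of 4672 sham cells (7.30%, 6.57 to 8.08), a ratio of 2.06 (1.77 to 2.39). They held 86.1% of the members' UMIs of the retained JVL-14 cells and 16.2% of those of the sham cells, or 81.0% in sham without the barcodes rich in immunoglobulin. The difference in Ighm and Igkc outside those barcodes therefore lay beside a difference in the share of B lineage cells among retained cells. How much of it that share sets was not tested.

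Of the B lineage cells, 150 JVL-14 cells (6.07%, 5.16 to 7.09) and 161 sham cells (3.45%, 2.94 to 4.01) were mature B cells, all in 1 cluster in which 9 markers were raised. Precursors numbered 221 in the JVL-14 library (8.94%) and 180 in the sham library (3.85%), a ratio of 2.32 (1.90 to 2.84). They fell into a resting cluster led by Vpreb3, an assembly partner of the µ chain, with 184 JVL-14 and 164 sham cells, and a cycling cluster with 37 JVL-14 and 16 sham cells. Rule cells are left out of these numbers. The resting cluster held a further 8 JVL-14 and 11 sham rule cells, and the cycling cluster 9 and 4. The cycling cluster had 6 precursor markers raised, none of them among its 10 leading genes.

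**Figure D3:**
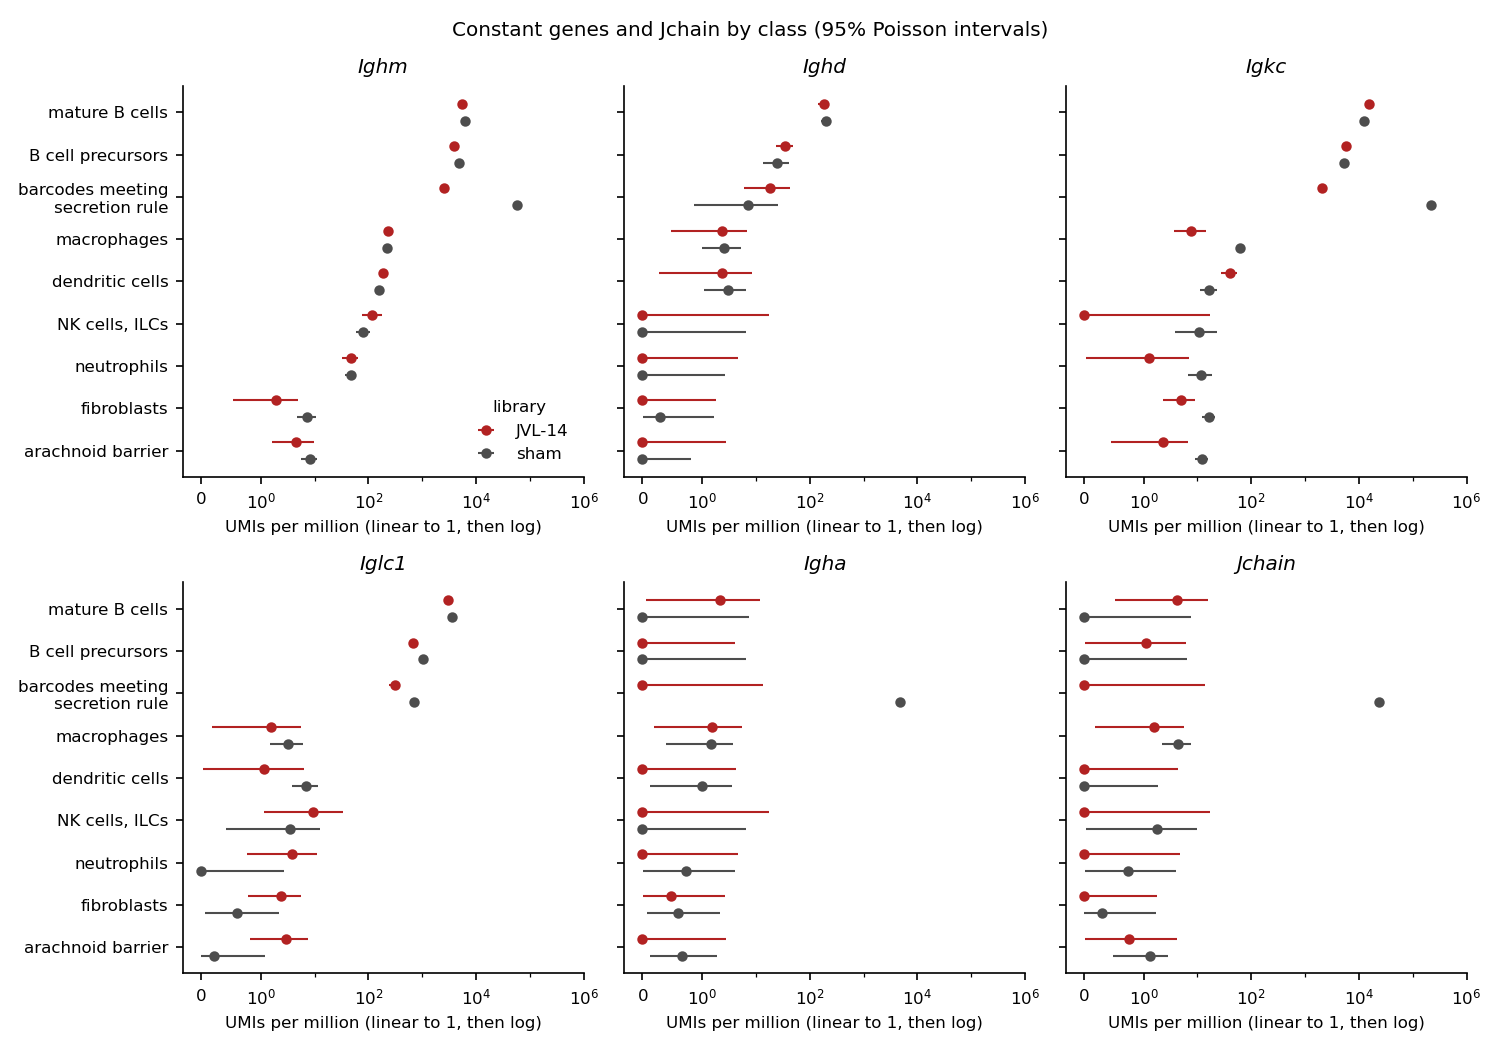
Level of 6 genes (CPM, axis linear to 1 and logarithmic above) in 9 cell classes of the JVL-14 and sham libraries, with 95% Poisson intervals. Ighm and Igkc are highest in mature B cells and precursors of both libraries and in the sham barcodes of the secretion rule, and Ighm also stands between 46.6 and 234 CPM in macrophages, dendritic cells and neutrophils.

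In mature B cells every cell held Ighm, and the antibody genes differed little between the libraries. Of the 4 members measured there, 0 were at least 1.5-fold higher and 0 at least 1.5-fold lower in JVL-14 cells, where 12% of 5301 genes were higher and 9.90% lower by that much. The median log2 ratio of the 4 was -0.16 and that of all genes 0.05. Ighm was at 5425 CPM in JVL-14 and 6235 CPM in sham cells (ratio 0.870, 0.825 to 0.918). Ighd was at 181 and 197 CPM (ratio 0.919, 0.678 to 1.24), with 3.34 Ighd UMIs per 100 Ighm UMIs in JVL-14 and 3.16 in sham cells. No cell held Ighd without Ighm, in 42 JVL-14 and 58 sham cells with an Ighd UMI.

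The light chain genes of mature B cells stood on either side of 1. Igkc was at 15304 CPM in JVL-14 and 12547 CPM in sham cells (ratio 1.22, 1.18 to 1.26), with medians of 45.0 and 33.0 UMIs per cell. Iglc1 was at 3059 CPM in JVL-14 and 3625 CPM in sham cells (ratio 0.844, 0.786 to 0.905), while Iglc2 was at 3444 and 3334 CPM (ratio 1.03). Both Igkc and Iglc1 thus stayed within 1.5-fold, and the direction of Igkc turned (0.878) when immunoglobulin genes were used in the clustering. Mature B cells without any Igkc UMI were 15 of 150 (10.0%) in the JVL-14 and 22 of 161 (13.7%) in the sham library.

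Mature B cells carried no switched isotype as their main one. All 146 JVL-14 and all 158 sham cells with at least 5 heavy chain UMIs took at least 70% of them from Ighm and Ighd. Switched genes gave 1 UMI in 1 JVL-14 cell and 3 UMIs in 1 sham cell, and Jchain gave 2 UMIs in 2 JVL-14 cells and 0 in sham cells. The same held in precursors, where all 206 JVL-14 and all 167 sham cells with enough UMIs were led by Ighm and Ighd.

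In precursors 4 members were measured, and again 0 were at least 1.5-fold higher and 0 at least 1.5-fold lower in JVL-14 cells, where 8.90% of 5705 genes were higher and 14.5% lower. Their median log2 ratio was -0.09 and that of all genes -0.08. Ighm was at 3853 CPM in JVL-14 and 4796 CPM in sham precursors (ratio 0.803, 0.764 to 0.845), and Iglc1 at 684 and 1020 CPM (ratio 0.671, 0.599 to 0.753). Ighd rested on 32 JVL-14 and 14 sham UMIs, at 35.1 and 24.4 CPM (ratio 1.44, 0.745 to 2.91). Igkc was at 5739 CPM in JVL-14 and 5192 CPM in sham precursors (ratio 1.11, 1.06 to 1.16), a direction that turned without doublet removal (0.738) and at Leiden resolution 2 (0.918) and reached 1.53 with thinned cells.

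The 2 precursor clusters did not take equal parts in this, since cycling cells were 37 of 221 in the JVL-14 and 16 of 180 in the sham library. In the resting cluster alone Igkc was at 8825 CPM in JVL-14 and 6068 CPM in sham cells (ratio 1.45, 1.39 to 1.53), Ighm at 4912 and 5475 CPM (ratio 0.897), and Iglc1 at 1203 and 1339 CPM (ratio 0.898, 0.801 to 1.01). Ighd was past 1.5-fold there, at 46.3 CPM in JVL-14 and 23.0 CPM in sham cells (ratio 2.02, 0.930 to 4.73). That ratio rests on 24 JVL-14 and 10 sham UMIs, and its interval includes 1. The κ gene was found in more resting JVL-14 cells as well: 168 of 184 (91.3%, 86.3 to 94.9) held an Igkc UMI, against 131 of 164 sham cells (79.9%, 72.9 to 85.7). With every cell thinned to 1000 UMIs the shares were 89.8% and 77.6%, and the median depths before thinning were 2706.0 and 2547.0 UMIs. The median cell held 17.0 Igkc UMIs in the JVL-14 and 11.0 in the sham library, beside 14.0 Ighm UMIs in each.

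Cells led by λ were the counterpart. With at least 5 light chain UMIs and at least 70% of them from 1 light chain type, 123 resting JVL-14 precursors were led by κ, 14 by λ (8.33%, 4.63 to 13.6) and 31 by neither, against 88, 32 (23.0%, 16.3 to 30.9) and 19 in the sham library. In mature B cells 92 JVL-14 cells were led by κ, 22 by λ (14.9%, 9.56 to 21.6) and 34 by neither, against 89, 36 (22.8%, 16.5 to 30.1) and 33 sham cells. The intervals of the λ share did not overlap in resting precursors and overlapped in mature B cells. All 32 JVL-14 and all 13 sham cycling precursors with enough UMIs were led by κ.

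**Figure D4:**
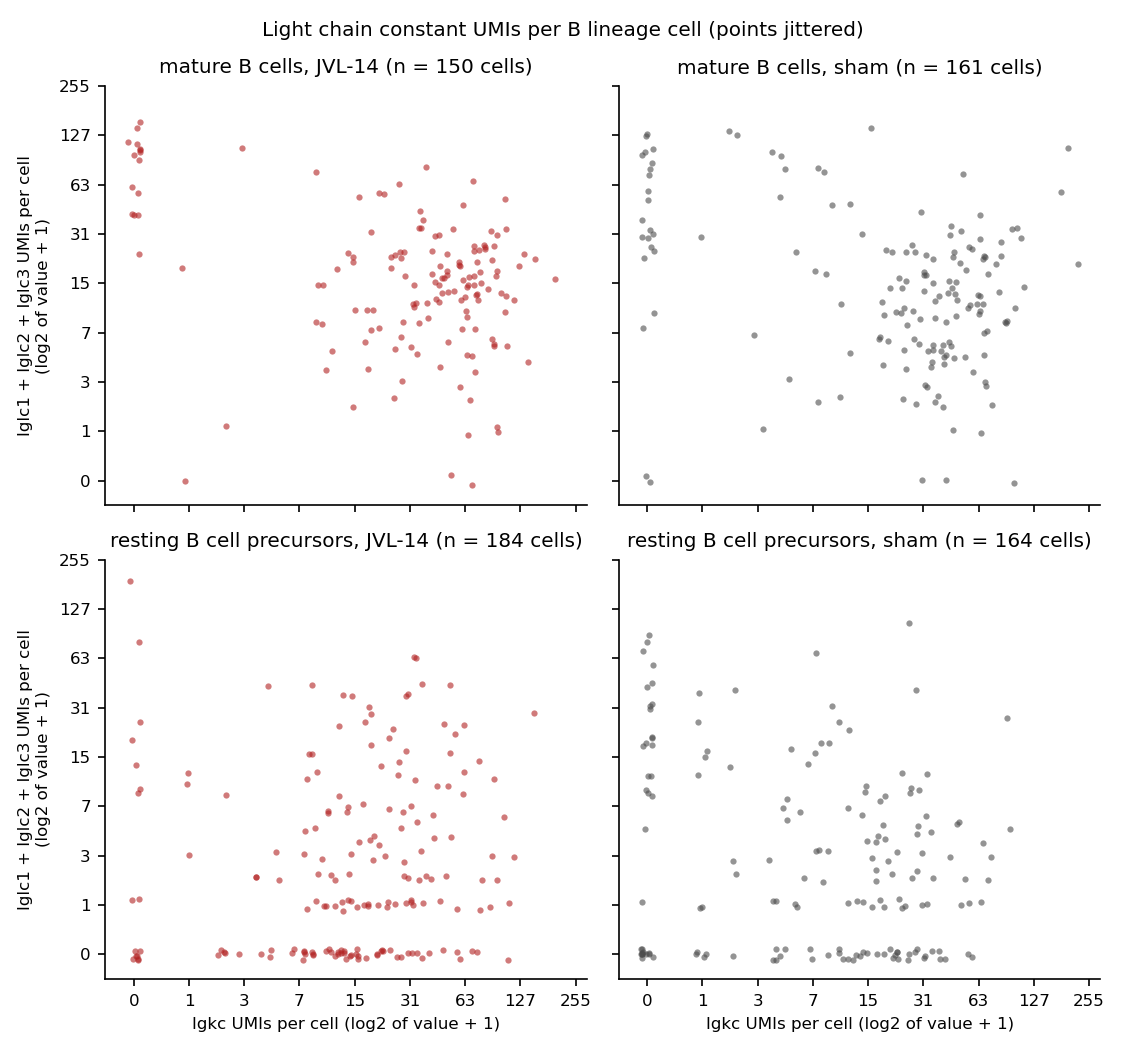
Igkc UMIs (horizontal) against the summed UMIs of Iglc1, Iglc2 and Iglc3 (vertical) in each mature B cell (top) and resting precursor (bottom) of the JVL-14 (left) and sham (right) library, as log2 of UMIs plus 1 with small random shifts. Most mature B cells rich in Igkc also hold λ UMIs, and the sham resting precursors hold more cells at 0 Igkc (33 of 164) than the JVL-14 ones (16 of 184).

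Light chain RNA of both types was common in 1 cell. Among mature B cells led by κ, 90 of 92 JVL-14 (97.8%) and 86 of 89 sham cells (96.6%) held a λ constant UMI, with medians of 12 and 8 λ UMIs beside 65.0 and 44.0 Igkc UMIs. In resting precursors led by κ the shares were 75 of 123 (61.0%) and 55 of 88 (62.5%), and in cycling precursors led by κ they were 2 of 32 and 1 of 13. An Iglc1 UMI, with or without other λ UMIs, was seen in 73 of these 92 JVL-14 and 61 of these 89 sham mature B cells. In macrophages, which should make no light chain, 0.581% of JVL-14 and 0.419% of sham cells held an Iglc1 UMI, at median depths of 2851.5 and 2350.0 UMIs against 2873.5 and 2773.0 UMIs in mature B cells. The λ UMIs of κ-led mature B cells were thus above the level in that class.

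The reverse was less marked. Among mature B cells led by λ, 7 of 22 JVL-14 (31.8%) and 16 of 36 sham cells (44.4%) held an Igkc UMI. The λ genes also appeared together: 22 of 22 JVL-14 and 30 of 36 sham λ-led mature B cells held both Iglc1 and Iglc2. Whether reads were assigned to the wrong λ gene was not tested. Iglc1 made up 46.2% of the λ UMIs in λ-led JVL-14 cells and 54.2% in sham cells, against 31.8% and 33.8% in κ-led cells. In κ-led resting precursors Iglc3 took the larger part, with 52.3% of λ UMIs in JVL-14 and 57.4% in sham cells, within the limit on the split between Iglc2 and Iglc3.

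Genes that work with the antibody chains were read as lists, described by how many members passed 1.5-fold, beside the shares over all 5301 genes of mature B cells (12% higher and 9.90% lower). In mature B cells 1 of 14 genes of B cell receptor signalling was higher (Cr2, a complement receptor, with 16 JVL-14 and 7 sham UMIs and an interval of 0.923 to 6.82 that includes 1) and 0 lower in JVL-14 cells, and of 11 transcription factors of the lineage 0 were higher and 0 lower. Cd79a, which carries the signal of membrane IgM and IgD, was at 5342 CPM in JVL-14 and 5886 CPM in sham cells (ratio 0.908, 0.860 to 0.958). Of 14 measured genes of antibody secretion 3 were higher (Eaf2, Dnajb9 and Sel1l) and 1 lower (Slamf7). Sel1l rests on 16 JVL-14 and 10 sham UMIs, and the interval of its ratio (0.708 to 4.09) includes 1. Dnajb9, a chaperone of the endoplasmic reticulum, was at 192 CPM in JVL-14 and 98.5 CPM in sham cells (ratio 1.95, 1.36 to 2.82), while Hsp90b1, the most abundant gene of that list, was at 675 and 643 CPM.

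In the other lists of mature B cells fewer genes were measured. Of 5 genes of plasma cell survival and homing 2 were lower, where 9.90% of all genes were, the integrin genes Itga4 and Itgb7. Itga4 was at 102 CPM in JVL-14 and 207 CPM in sham cells (ratio 0.493, 0.342 to 0.702). Itgb7 was at 10.6 and 37.0 CPM (ratio 0.288, 0.0836 to 0.805). It rests on 5 JVL-14 and 18 sham UMIs, with 100% and 61.1% of them in 5 cells. Of 5 measured antibody receptors 1, Fcer1g, was lower (17.0 CPM in JVL-14 and 47.2 CPM in sham cells). It rests on 8 JVL-14 and 23 sham UMIs, with 87.5% and 65.2% of them in 5 cells. Fcmr, the receptor for IgM, was at 588 and 585 CPM. Of 4 genes of class switching 0 passed in either direction.

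In precursors, where 8.90% of all genes were at least 1.5-fold higher and 14.5% lower in JVL-14 cells, the class also held different parts of cycling cells (37 of 221 JVL-14 and 16 of 180 sham cells), so ratios in the resting cluster are given beside those of the class. Of 14 genes of antibody secretion 4 were lower in JVL-14 cells, Xbp1 (47.2 CPM in JVL-14 and 76.8 CPM in sham cells), Irf4, Sdc1 (17.5 and 38.4 CPM) and Txndc5 (46.1 and 71.6 CPM, with an interval of the ratio that includes 1). Irf4, a transcription factor that also acts when light chain genes are opened, was at 118 CPM in JVL-14 and 192 CPM in sham cells (ratio 0.617, 0.469 to 0.812; resting cluster 0.635, 0.453 to 0.887). In the resting cluster the intervals of Xbp1 (0.467 to 1.18), Sdc1 (0.300 to 1.30) and Txndc5 (0.418 to 1.13) all include 1. Pdia4 of the same list was higher there, on 44 JVL-14 and 20 sham UMIs (ratio 1.85, 1.07 to 3.31; class 1.31, 0.868 to 2.01). Irf4 and Sdc1 are genes of the secretion rule, and rule cells had been taken out of the precursors. Their ratios thus describe cells left by a filter on these genes, and its part was not tested. Of 5 genes of the surrogate light chain and recombination list 1 was lower, Dntt, which adds bases at heavy chain joins, at 93.2 CPM in JVL-14 and 147 CPM in sham cells (ratio 0.636, 0.465 to 0.870), although the top 5 cells held 77.6% and 73.8% of its UMIs and the ratio in the resting cluster was 1.01 (0.694 to 1.48). Rag1, which cuts the gene segments to be joined, was at 115 and 171 CPM (ratio 0.673; resting cluster 0.832, 0.620 to 1.12). Igll1, a surrogate light chain gene, stayed lower in the resting cluster (ratio 0.661, 0.518 to 0.840; class 0.740, 0.613 to 0.896). In the class 5 cells held 47.5% of its JVL-14 and 59.4% of its sham UMIs.

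The remaining precursor lists differed in single genes. Of 11 transcription factors 1 was lower, Bach2, at 441 CPM in JVL-14 and 690 CPM in sham cells (ratio 0.639, 0.555 to 0.736; resting cluster 0.775, 0.661 to 0.907). Of 13 genes of receptor signalling 1 was higher, Ptpn6, a phosphatase that damps receptor signals, at 141 and 75.1 CPM (ratio 1.88, 1.33 to 2.73; resting cluster 2.18, 1.49 to 3.24). Of the 2 measured constant genes outside the members, Iglc2 was lower, at 461 CPM in JVL-14 and 826 CPM in sham precursors (ratio 0.558, 0.488 to 0.637), next to 0.671 for Iglc1. In the resting cluster the ratios were 0.744 (0.651 to 0.851) for Iglc2 and 0.898 for Iglc1. Of 4 genes of survival and homing Itga4 was lower, at 99.8 and 169 CPM (ratio 0.589, 0.438 to 0.793; resting cluster 0.682, 0.471 to 0.985), of 3 antibody receptors Fcmr was lower (resting cluster 0.867, 0.513 to 1.47), and of 5 genes of class switching 0 passed in either direction.

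Secreting cells were also sought without the members, as barcodes with a UMI of Mzb1 and of at least 2 of Derl3, Tnfrsf17, Sdc1, Prdm1 and Irf4 and with no UMI of Siglech. This rule took 27 of 2471 JVL-14 cells (1.09%, 0.721 to 1.59) and 26 of 4672 sham cells (0.557%, 0.364 to 0.814), a ratio of 1.96 (1.10 to 3.50). Among retained cells, the members show that it did not take the same mix of cells in the libraries. In the JVL-14 library 0 of the 27 held at least 20% immunoglobulin UMIs and 0 held a Jchain UMI, against 8 of 26 sham cells for each. The doublet filter had removed the 2 JVL-14 barcodes that met the rule and were rich in immunoglobulin. Over deposited barcodes the rule took 29 JVL-14 barcodes, 2 of them of this kind and with Jchain. It took 30 sham barcodes, 11 of them so. Of the JVL-14 cells 17 lay in the 2 precursor clusters and 2 in the mature B cell cluster, against 15 and 2 of the sham cells. The precursor and mature B cell counts and levels above leave them out.

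The members' levels in these retained cells, which lack the JVL-14 barcodes removed as doublets, differed accordingly. All 6 members measured were at least 1.5-fold lower in the JVL-14 cells, where 52.8% of 3321 genes were higher and 8.46% lower. Igkc was at 2032 CPM in JVL-14 and 214303 CPM in sham cells (ratio 0.00948), Ighm at 2589 and 56901 CPM (ratio 0.0455), and Jchain had 0 UMIs in JVL-14 and 6636 UMIs in sham cells (23849 CPM). The rule cells that were not rich in immunoglobulin were 27 in the JVL-14 and 18 in the sham library, a ratio of 2.84 (1.51 to 5.47). Of 18 measured secretion genes 16 were lower in JVL-14 rule cells and 1 (Irf4) was higher, and the genes of the rule itself are among them. The rule was thus a mixture, and its share is no count of plasma cells.

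Ighm was also found outside the B lineage, in macrophages and other immune classes at a level that the other members did not share. In erythroid cells Igkc stood above Ighm instead, at 83.3 against 28.5 CPM in JVL-14 and 52.5 against 28.9 CPM in sham cells. Macrophages held 302 Ighm UMIs in the JVL-14 (234 CPM) and 617 in the sham library (221 CPM), a ratio of 1.06 (0.920 to 1.22). An Ighm UMI was seen in 46.2% of JVL-14 (40.9 to 51.6) and 44.3% of sham macrophages (40.6 to 48.0), and in 22.1% and 21.8% at 1000 UMIs per cell. Igkc was seen in 2.62% of JVL-14 and 5.73% of sham macrophages, and in 0.692% and 2.01% at 1000 UMIs. In fibroblasts, which have no known use for either gene, Ighm was seen in 1.47% of JVL-14 and 4.93% of sham cells and Igkc in 3.30% and 10.3%, at 0.372% and 1.09% for Ighm and 0.372% and 0.870% for Igkc when thinned.

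**Figure D5:**
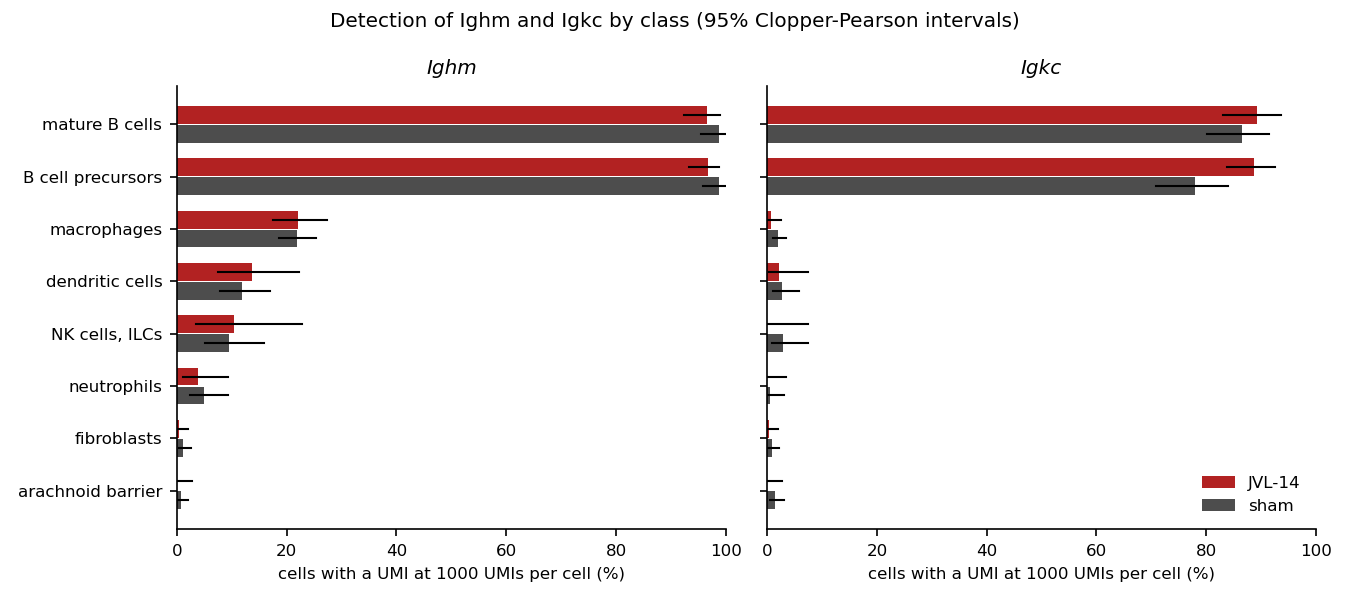
Share of cells with a UMI (percent) of Ighm (left) and Igkc (right) by class after every cell was thinned to 1000 UMIs, for the JVL-14 and sham libraries, with exact 95% binomial intervals. Macrophages and dendritic cells stand between mature B cells and fibroblasts for Ighm (22.1% and 21.8% in macrophages) and near the fibroblasts for Igkc (0.692% and 2.01%).

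The mix of the 2 genes set these classes apart from the stroma. In the myeloid, innate lymphoid, T and mast cell classes together, Igkc made up 7.60% of Igkc and Ighm UMIs in the JVL-14 (46 against 559 UMIs, 5.62 to 10.0) and 17.8% in the sham library (233 against 1078, 15.7 to 20.0). In the stromal, vascular and glial classes together it made up 59.0% in the JVL-14 (23 against 16 UMIs, 42.1 to 74.4) and 67.9% in the sham library (161 against 76, 61.6 to 73.8), beside 62.8% and 75.1% over all retained cells. The intervals of these class groups did not overlap in either library, and the part of free RNA in these levels was not tested.

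Most companions of Ighm were scarce in macrophages, and Cd79b was the exception. Heavy chain variable genes gave 1 UMI beside 302 Ighm UMIs in JVL-14 and 0 beside 617 in sham macrophages, against 31 beside 2547 and 23 beside 3037 in mature B cells, counts too small to order the classes. Neutrophils held 8 beside 37 in JVL-14 and 11 beside 64 in sham cells. Cd79a gave 0.993 UMIs per 100 Ighm UMIs in JVL-14 and 5.83 in sham macrophages, against 98.5 and 94.4 in mature B cells, and Ms4a1, a surface protein of mature B cells, gave 0 and 17 UMIs. Cd79b, the partner of Cd79a, gave 24.5 UMIs per 100 Ighm UMIs in JVL-14 and 25.3 in sham macrophages, against 53.9 and 50.3 in mature B cells. Of the macrophages with Ighm, 122 of 159 JVL-14 and 249 of 317 sham cells had no UMI of Cd79a, Cd79b, Ms4a1 or Pax5, and these held 74.8% and 70.2% of the Ighm UMIs. Doublets with B cells could leave B cell genes in the other cells, and their part was not tested.

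Other blood-derived classes held the same gene, and dendritic cells held it in 61.9% of JVL-14 and 56.2% of sham cells at their own depth. Ighm was at 191 CPM in JVL-14 and 157 CPM in sham dendritic cells, at 119 and 79.3 CPM in natural killer and innate lymphoid cells, and at 46.6 and 46.8 CPM in neutrophils, with 13.7% and 11.9%, 10.4% and 9.56%, and 3.77% and 5.00% of cells at 1000 UMIs. In the JVL-14 library the order of Ighm levels was mature B cells, precursors, rule cells and then macrophages, with the intervals of macrophages and dendritic cells overlapping. In the sham library rule cells came first at 56901 CPM, followed by mature B cells, precursors, macrophages and dendritic cells, whose interval overlapped with that of the next class.

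Igkc outside the B lineage was uneven between cells. It was at 7.76 CPM in JVL-14 and 61.3 CPM in sham macrophages (ratio 0.127, 0.0596 to 0.239), but 5 cells held 78.9% of the sham UMIs. In fibroblasts it was at 4.87 CPM in JVL-14 and 16.3 CPM in sham cells (ratio 0.299, 0.136 to 0.593), and in the stromal, vascular and glial classes together at 4.32 and 14.2 CPM (ratio 0.305, 0.188 to 0.474). Without the 5 cells of each library that held most, the macrophage ratio was 0.240 (0.0622 to 0.671). In dendritic cells it was at 39.6 CPM in JVL-14 and 16.4 CPM in sham cells (ratio 2.41, 1.45 to 4.02), but 1 JVL-14 cell held 24 of the 34 UMIs. Without the highest cell of each library that ratio turned to 0.762 (0.33 to 1.60). In erythroid cells Igkc was higher in the JVL-14 library (ratio 1.59, 1.13 to 2.26). There 1 JVL-14 cell held 109 of 120 UMIs and 1 sham cell 40 of 49. Igkc over all deposited barcodes was at 1165 CPM in the JVL-14 and 2610 CPM in the sham library.

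The genes whose levels over 34 points (17 classes in each library) ran most like the members are named here with Pearson's r. For Ighm they were Tnfrsf13b (r = 0.930), Cd72 (0.925), Rhoh (0.921), Cd79b (0.913) and Blnk (0.904), of 9354 genes compared. For Igkc they were Gm51802 (0.946), Eaf2 (0.943), Mzb1 (0.943), Cd79a (0.941) and Gm56536 (0.934). Rule cells are among the classes and each had to hold Mzb1, so the likeness of Mzb1 is partly fixed by the rule. Igkc was also highest in the sham rule cells (214303 CPM). For Igha and Jchain the most alike were Or51e1, Prg2, Oosp1 and Cacna1s, at r of 0.915 to 0.995, and these rest on a single point, the sham rule cells. Points from 1 library share its depth and free RNA, so the values are descriptions.

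Receptors that carry or bind antibody were read where they were highest. Fcgr2b, the inhibitory IgG receptor, was at 435 CPM in JVL-14 and 572 CPM in sham macrophages (ratio 0.760, 0.689 to 0.838), and Fcgr1 at 298 and 241 CPM. Fcgrt, which recycles IgG, was at 592 CPM in JVL-14 and 564 CPM in sham fibroblasts. Pigr, which carries polymers joined by the J chain across epithelia, gave at most 2 UMIs in any class. Tnfsf13, a survival factor of plasma cells, was at 77.1 CPM in JVL-14 and 77.5 CPM in sham chondrocytes or tenocytes (ratio 0.995, 0.759 to 1.29). In macrophages it was at 61.3 CPM in JVL-14 and 87.1 CPM in sham cells (ratio 0.704, 0.539 to 0.911). In blood endothelial cells it was at 86.6 and 58.0 CPM, on 11 JVL-14 and 17 sham UMIs. The order of these classes differed between the libraries. Cxcl12, which draws plasma cells and precursors, was at 1535 and 1098 CPM in blood endothelial cells (ratio 1.40, 1.16 to 1.67) and at 401 and 599 CPM in fibroblasts (ratio 0.669, 0.616 to 0.726).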

How the data were processed

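The deposited matrices hold raw UMI counts per gene and barcode, written by Cell Ranger 8.0.0 per the file headers. Per the submitters' processing notes the build was mm39. The annotation is not given. The genes and lists were chosen with earlier results of these data known. Barcodes with under 200 genes or over 10% mitochondrial UMIs were left out (2608 JVL-14 and 4951 sham passed). Scrublet, run per library, marked 0.230% and 0.121% by its own threshold, under the preset minimum of 0.5%, so the top 5% of scores (137 and 279 barcodes) were removed.

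Both libraries were clustered together in scanpy 1.11.5 (Python 3.11.15, scipy 1.17.1) on 2000 variable genes without the 391 immunoglobulin genes: scaling to 10000 per cell, 30 principal components, 15 neighbours, Leiden resolution 1. A cluster was named from preset markers if its score was at least 0.5 with 3 markers raised 1.5-fold in at least 10% of its cells and no more markers of another class among its 10 leading genes. Counts were summed per class and library, with rule cells as a class of their own. CPM have exact Poisson intervals, ratios exact conditional binomial intervals and shares Clopper-Pearson intervals. Folds over all genes used the count plus 0.5, for genes with at least 20 UMIs and 20 CPM. An UMI count of 0 allows up to 3 counts. The scripts were tested on simulated data. All members were named; of each list, those past 1.5-fold with an interval that leaves out 1 (up to 4) and the most abundant, and beside counts of 5 or fewer the others were named after their values were seen. Vpreb1, Vpreb2 and Ighg2a matched no symbol. Sequences come from another build, so no coordinates are given. Alternatives covered filters, clustering, thinning and weighting, and leaving out barcodes. Values in the resting cluster alone, those without the top Igkc cells and those without the barcodes rich in immunoglobulin were added after the data were seen. Pdia4 and Igll1 were named for their resting cluster values.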

Additional observations from a re-analysis of the deposited data

How the results depend on the processing

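No paired analysis was possible because each group has 1 library and no test was made. Sums over all 10 genes are given as ratios of JVL-14 over sham CPM, and the cause of a change was not tested unless stated. Over all retained cells the ratio was 0.416. It was 0.731 without doublet removal, 0.613 with at least 500 genes and 0.702 over all deposited barcodes. It turned to 2.14 with at most 5% mitochondrial UMIs, 1.20 with cells weighted equally, 1.19 at 1000 UMIs per cell, 1.16 without the top 5 barcodes, 1.83 without the rule cells, 2.07 without the barcodes of at least 20% immunoglobulin and 1.96 over deposited barcodes without these.

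Over the same settings Ighm (0.624) turned to 1.16 with 500 genes, 1.89 with 5% mitochondrial UMIs, 1.27 with equal weights, 1.26 thinned, 1.55 without the top 5, 1.70 without rule cells, 1.84 without the barcodes rich in immunoglobulin and 1.75 for deposited barcodes without them. Igkc (0.349) turned to 2.50, 1.21, 1.22, 1.03, 1.97, 2.36 and 2.24 under these settings other than 500 genes. Ighg2b (0.237) turned to 1.33 without doublet removal, 1.86 thinned, 1.28 over deposited barcodes and 1.12 without rule cells.

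In mature B cells the sum was 1.06, with 1.09 at 5% mitochondrial UMIs and 0.848 with immunoglobulin genes in the clustering. In precursors it was 0.934, with 0.760 without doublet removal, 1.07 at 5% mitochondrial UMIs, 1.10 with immunoglobulin genes in the clustering, 0.859 at resolution 2, 1.13 with equal weights and 1.15 thinned. The precursor ratio of Igkc ranged from 0.738 without doublet removal to 1.53 thinned. The λ-led share of precursors was 5.88% to 8.13% in JVL-14 and 17.1% to 22.6% in sham cells over the filters and clusterings, and 14.1% and 27.9% when 50% of at least 10 UMIs sufficed.

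In rule cells the sum was 0.0165, with 0.283 without doublet removal, 0.0207 with 500 genes, 0.0489 with equal weights, 0.0521 thinned, 0.0115 with immunoglobulin out of the total and 0.0520 without the top 5 barcodes. Iglc1 there (0.428) turned to 40.7 without doublet removal, where the JVL-14 IgA barcode enters. At 5% mitochondrial UMIs, with an immunoglobulin share of at least 5%, or without the barcodes rich in immunoglobulin, under 20 rule cells were left in a library and no value was given. The share of rule cells (1.96) was 1.40 to 2.79 under the filters and with an immunoglobulin share of at least 5%, and that of the barcodes rich in immunoglobulin, doublets kept, 0.316. All isotype settings left 0 or 1 JVL-14 and 0 to 2 sham cells led by a switched gene. Of the single-gene and single-share values 129 stayed, 64 moved and 20 turned. Of the headline values 24 stayed, 17 moved and 8 turned. Depth limits the IgG genes and Ighd most, and with 1 library per group no difference can be set against variation between mice.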
